A study of Rattus norvegicus with 6 samples.

Results

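The mitochondrial ribosomal protein genes of rat liver were followed after embolization with ZnS microspheres and after embolization with blank microspheres. Members were the genes whose symbol begins with Mrpl or Mrps and a number and that held at least 10 counts over the 6 libraries, which gave 74 of 32623 genes in the deposited table. Of these, 45 carry Mrpl symbols (named for the large subunit) and 29 carry Mrps symbols (named for the small subunit). A further 2 genes named Mrps21l matched by symbol and held 0 and 1 counts. No measured difference between the groups entered this choice, but the group was picked with earlier results of these data known. The GZM group comprised 3 libraries of liver embolized with ZnS microspheres, and the GM group 3 libraries of liver embolized with blank microspheres, which served as the control. Embolization blocks blood vessels with particles and was common to both groups, so no comparison with liver that was not embolized is possible here. The labels give rat and liver and a numbered biosample for each library. Strain, sex, age, time after embolization and whether a piece was tumor or surrounding liver are not given in them, although the series title names hepatocellular carcinoma.

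The mitochondrial ribosome makes the few proteins that mitochondrial DNA encodes, all of them subunits of the respiratory chain and of ATP synthase. Its ribosomal RNAs come from mitochondrial DNA, whereas every one of its proteins is encoded in the nucleus, made in the cytosol and imported. Some of these proteins have bacterial counterparts, and others were added in mitochondria. Liver is rich in mitochondria, since hepatocytes rely on them for much of their metabolism.

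Each library held 13443115 to 16604067 counts, and 14298 genes passed the low-count filter, 72 of the members among them. Mrpl36, a very small protein of the large subunit, had 0, 1 and 2 counts in GZM and 5, 2 and 6 in GM, and Mrpl53, a stalk-base protein, had 3, 3 and 2 counts in GZM and 5, 3 and 3 in GM. Neither was tested. The scaling between libraries decides the direction of the whole group. TMM factors, which set the bulk of genes level between libraries, were 0.742, 0.715 and 0.793 for GZM 1 to 3 and 1.43, 1.42 and 1.17 for GM 1 to 3. Levels below are CPM, counts scaled to a common library size, on this TMM scale unless FPKM is named, and log2 fold changes are GZM over GM with their standard error, tested by edgeR's quasi-likelihood test with Benjamini-Hochberg adjustment over all tested genes. The median log2 fold change of all tested genes was -0.09 on the TMM scale and -0.92 with library totals, and a member's log2 fold change was typically 0.84 lower with library totals. In bulk tissue, a different share of cells of one type and a different amount of RNA per cell cannot be told apart.

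On the TMM scale, 28 of the 72 tested members (38.9%) rose in GZM and 0 fell, whereas with library totals 0 rose and 27 (37.5%) fell. Over all tested genes, 44% passed in either direction, 22.2% higher and 21.7% lower in GZM on the TMM scale, and 9.2% higher and 59.5% lower with library totals. At an unadjusted p under 0.05 the count of lower members on the TMM scale was also 0, and DESeq2 gave 31 higher and 0 lower. The median log2 fold change of the members was 0.40 (quartiles 0.20 and 0.65), beside quartiles of -0.68 and 0.58 for all tested genes. With library totals the member median was -0.44. On either scale, 66 of the 72 members lay above the median of all genes, and the members' median exceeded that of all genes by 0.49. The members spread less than genes at large did: 2 of 72 changed by at least 2-fold on the TMM scale, against 32.8% of all tested genes. Genes of similar level were not compared, so the smaller spread is not shown to be particular to the members. The ranges of the 2 groups were separate for 42 members (58.3%), close to the 58.1% of all tested genes, and 40 of those members were higher in GZM on the TMM scale, where 28.4% of all genes were higher in GZM with separate ranges.

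**Figure D1:**
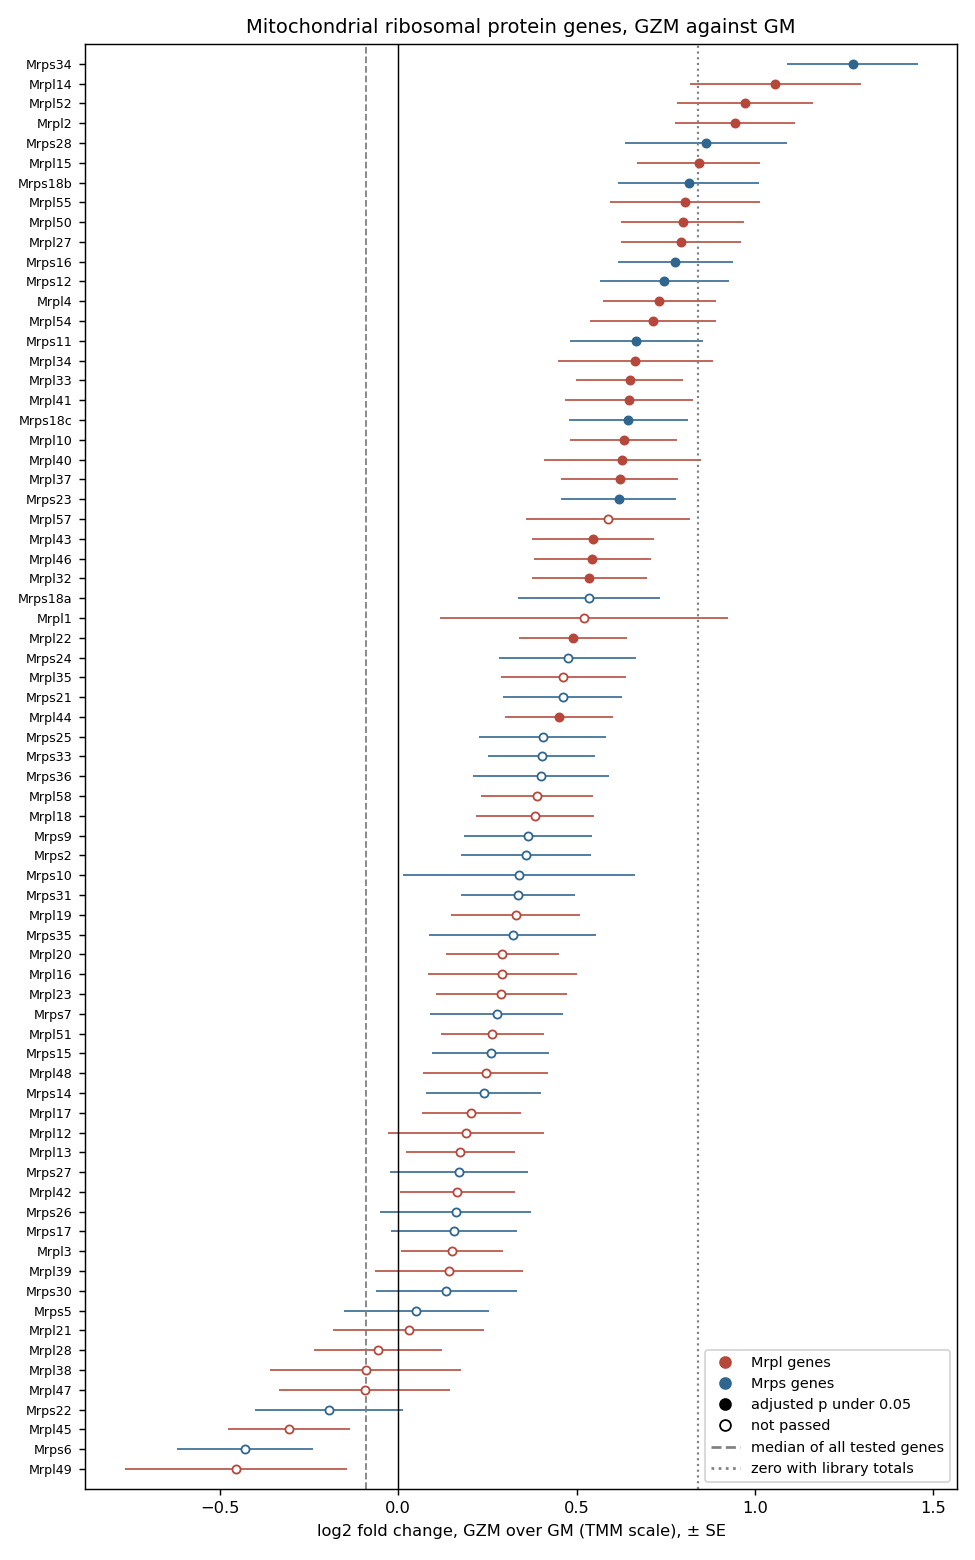
Each of the 72 tested members is a point at its log2 fold change (GZM over GM, TMM scale) with a bar of 1 SE. Filled points passed at an adjusted p of 0.05, the dashed line marks the median of all tested genes and the dotted line marks where a member of typical value would stand at 0 with library totals. The points run from 1.27 for Mrps34 to -0.46 for Mrpl49, and 67 of the 72 stand left of zero when library totals are used.

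The count of called members depended on single libraries. It was 9 without GZM 2, 11 without GM 1, 16 without GZM 1, 21 without GZM 3, 31 without GM 3 and 33 without GM 2, all on the TMM scale and all higher in GZM. Over all tested genes, those higher numbered 2112 of 14843 without GZM 2 and 2195 of 14494 without GM 1. They numbered 2701 of 14832 without GZM 1, 2411 of 14716 without GZM 3, 3592 of 14618 without GM 3 and 2801 of 14454 without GM 2. With all 6 libraries they numbered 3181 of 14298. Without GZM 2 or without GM 1, the share of the 72 members called higher was thus near that of all genes. The members called without each of the 6 libraries in turn were Mrps34, Mrpl14, Mrpl52, Mrpl2, Mrpl15, Mrpl50, Mrpl27, Mrps16 and Mrpl4. Many members shared an order of the libraries within a group. The same order was not counted over all tested genes, so it is not shown to be particular to the members. GM 2 was the highest GM library for 52 of the 72 members and GM 1 the lowest for 56, and GZM 3 was the lowest GZM library for 59. Summed over all members, CPM came to 2553, 2572 and 2225 in GZM 1 to 3 and to 1616, 2083 and 1790 in GM 1 to 3. As a share of all counts, the members took 0.189% (95% Wilson interval 0.187 to 0.192), 0.184% (0.182 to 0.186) and 0.176% (0.174 to 0.178) in GZM 1 to 3 and 0.230% (0.228 to 0.233), 0.295% (0.293 to 0.298) and 0.210% (0.207 to 0.212) in GM 1 to 3. The GZM libraries were thus the higher ones on the TMM scale and the lower ones as a share of counts, with no overlap either way. These intervals cover counting error only.

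Mrps34, a small-subunit protein found only in mitochondria and needed in mammals for a stable small subunit, had the largest rise among the members. Its CPM was 53.6, 60.7 and 51.4 in GZM 1 to 3, against 18.4, 27.4 and 22.7 in GM 1 to 3. Every GZM library stood above every GM library. The log2 fold change was 1.27 ± 0.18 (adjusted p = 0.00268), and it kept its sign with library totals, at 0.43 (adjusted p = 0.0866), where it did not pass. Per length, Mrps34 had a mean of 45.8 ± 2.09 FPKM in the GZM libraries and 33.9 ± 8.03 FPKM in the GM libraries (SD, n = 3 per group), which gave it rank 5 among the tested members in GZM and rank 27 in GM.

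Mrpl14, a large-subunit protein at the face that meets the small subunit, had 27.8, 21.6 and 17.7 CPM in GZM 1 to 3, against 8.63, 10.9 and 12.7 CPM in GM 1 to 3, a log2 fold change of 1.06 ± 0.24 (adjusted p = 0.0105). Mrpl52, found only in mitochondria, had 70.6, 62.8 and 58.9 CPM in GZM, against 32.7, 25.4 and 39.8 CPM in GM, a log2 fold change of 0.97 ± 0.19 (adjusted p = 0.00619). Mrpl2, which lies close to the site of peptide bond formation, had 31.6, 28.9 and 25.7 CPM in GZM, against 13.6, 14.8 and 16.4 CPM in GM, a log2 fold change of 0.94 ± 0.17 (adjusted p = 0.00459). None of these groups overlapped, and with library totals these members had values of 0.23, 0.15 and 0.11 that did not pass.

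The next members in order were Mrps28, Mrpl15, Mrps18b and Mrpl55. Mrps28, a small-subunit protein, had 27.8, 22.6 and 17.3 CPM in GZM 1 to 3, against 10.4, 13.2 and 13.6 CPM in GM 1 to 3. Its log2 fold change of 0.86 ± 0.23 passed with an adjusted p of 0.0183, and that p was 0.0586 without GZM 1, 0.0616 without GZM 2 and 0.0673 without GM 1. Mrpl15, a protein of the large subunit's RNA core, had 103, 99.7 and 75.2 CPM in GZM, against 47.9, 57.1 and 50.1 CPM in GM, a log2 fold change of 0.84 ± 0.17 (adjusted p = 0.00721). Every GZM library stood above every GM library for Mrpl15, and with library totals the value was -0.0042 (adjusted p = 0.985). Mrps18b, one of 3 mammalian relatives of a single bacterial small-subunit protein, had 61.9, 63.3 and 53.2 CPM in GZM, against 25.1, 39.8 and 36.4 CPM in GM, a log2 fold change of 0.81 ± 0.20 (adjusted p = 0.0132, and 0.0548 without GZM 2). Mrpl55, a protein of the central protuberance, had 19.4, 20.7 and 17.6 CPM in GZM, against 8.58, 12.0 and 12.4 CPM in GM, a log2 fold change of 0.80 ± 0.21 (adjusted p = 0.0173, 0.0738 without GZM 2 and 0.0553 without GM 1). Among these 4, only Mrps28 had a value above 0 with library totals, at 0.03.

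**Figure D2:**
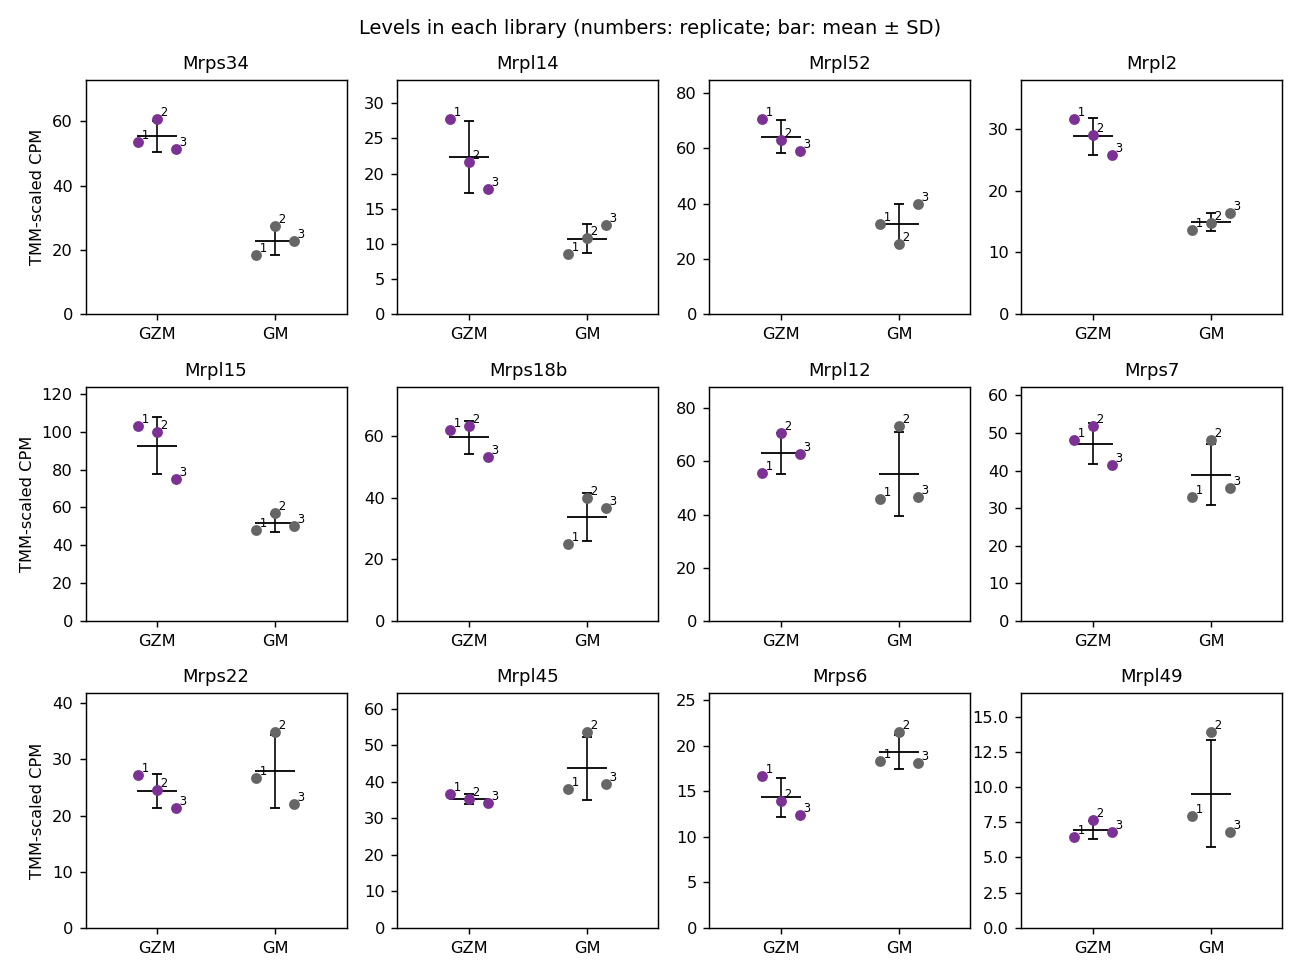
TMM-scaled CPM of 12 members in each library, with replicate numbers beside the points and a bar for the mean ± SD (n = 3 per group). The upper row and the first 2 panels of the middle row show members whose GZM libraries lie above all GM libraries, and the other panels show Mrpl12, Mrps7, Mrps22, Mrpl45, Mrps6 and Mrpl49, which did not pass on this scale.

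In the large subunit, 11 of 25 tested proteins with a bacterial counterpart rose on the TMM scale and 0 fell (median log2 fold change 0.46). With library totals 0 of them rose and 9 fell (median -0.38). Of 20 tested proteins listed as specific to mitochondria, 9 rose on the TMM scale and 0 fell (median 0.49). With library totals 0 of these rose and 8 fell (median -0.35). Mrps18a is counted among the latter list, although it is related to a bacterial small-subunit protein. Over all tested genes, 22.2% were higher and 21.7% lower on the TMM scale, and 9.2% and 59.5% with library totals. Mrpl3, which reaches toward the catalytic site and whose mutation in humans impairs mitochondrial translation, had 55.1, 46.9 and 49.1 CPM in GZM 1 to 3, against 41.0, 48.5 and 46.5 CPM in GM 1 to 3. These libraries overlapped, with a log2 fold change of 0.15 ± 0.14 (adjusted p = 0.418). Mrpl4, at the tunnel wall, and Mrpl27, near the catalytic site, both rose on the TMM scale, with log2 fold changes of 0.73 ± 0.16 (adjusted p = 0.0087) and 0.79 ± 0.17 (adjusted p = 0.0082), and both lay slightly below 0 with library totals, at -0.11 and -0.05.

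The stalk of the large subunit recruits the translation factors, and its proteins did not all show the same value. Mrpl10, the stalk's anchor, had 49.8, 54.9 and 46.7 CPM in GZM 1 to 3, against 28.7, 36.1 and 32.9 CPM in GM 1 to 3. It rose on the TMM scale, with a log2 fold change of 0.63 ± 0.15 (adjusted p = 0.0122, 0.0623 without GZM 2 and 0.0517 without GM 1), and stood at -0.21 with library totals. Mrpl12, which Mrpl10 carries on the ribosome, had 55.6, 70.7 and 62.7 CPM in GZM, against 45.7, 73.4 and 46.5 CPM in GM. GM 2 was above all GZM libraries for Mrpl12, whose log2 fold change was 0.19 ± 0.22 (adjusted p = 0.502). The stalk-base protein Mrpl11 is listed in lower case (mrpl11) and so is not a member. It had 33.7, 39.8 and 35.5 CPM in GZM, against 24.3, 28.7 and 24.8 CPM in GM, a log2 fold change of 0.49 ± 0.15 (adjusted p = 0.0322, up to 0.140 without GZM 2, 0.110 without GM 1, 0.0844 without GZM 3 and 0.0682 without the low-count filter). Mrpl54 rose with a log2 fold change of 0.71 ± 0.18 on the TMM scale (adjusted p = 0.0145), was called without 4 of the 6 libraries in turn, and stood at -0.11 with library totals.

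Of 7 tested proteins of the central protuberance, which faces the head of the small subunit, 4 rose on the TMM scale (Mrpl27, Mrpl55, Mrpl46 and Mrpl40) and 0 fell (median 0.54). With library totals 0 of them rose and 2 fell (median -0.28). Around the exit of the polypeptide tunnel, 2 of 6 tested proteins rose on the TMM scale, Mrpl22 and Mrpl44, and 0 fell (median 0.25). With library totals 0 of these rose and 4 fell (median -0.59). Beside these small lists stand the shares over all tested genes, 22.2% higher and 21.7% lower on the TMM scale, and 9.2% and 59.5% with library totals. Mrpl44, a protein with a fold related to bacterial ribonuclease III, had 24.8, 24.7 and 23.2 CPM in GZM 1 to 3, against 17.3, 18.8 and 17.2 CPM in GM 1 to 3. Its replicates were tight, with a log2 fold change of 0.45 ± 0.15 (adjusted p = 0.0431), yet its adjusted p was 0.104 without the low-count filter, 0.0992 without GZM 1, 0.141 without GZM 2, 0.0964 without GZM 3 and 0.123 without GM 1. Mrpl23, also at the exit, had 22.9, 23.3 and 17.5 CPM in GZM, against 16.2, 16.9 and 19.0 CPM in GM, and a log2 fold change of 0.29 ± 0.18 (adjusted p = 0.234). Mrpl45, which anchors the ribosome at the inner membrane, had 36.6, 35.2 and 34.1 CPM in GZM, against 38.0, 53.5 and 39.3 CPM in GM. It was one of 2 members with every GZM library below every GM library on the TMM scale, the other being Mrps6, and its log2 fold change of -0.31 ± 0.17 did not pass there (adjusted p = 0.178) but passed at -1.15 with library totals (adjusted p = 0.00231). Mrps30 and Mrps18a sit in the large subunit despite their symbols. Mrps30 had 33.5, 38.6 and 30.3 CPM in GZM, against 25.6, 39.0 and 28.6 CPM in GM, and Mrps18a had 41.0, 41.5 and 33.4 CPM in GZM, against 23.4, 33.7 and 22.8 CPM in GM. The groups overlapped for both, with log2 fold changes of 0.13 ± 0.20 (adjusted p = 0.601) and 0.53 ± 0.20 (adjusted p = 0.0597).

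In the small subunit, 5 of 16 tested proteins with a bacterial counterpart rose on the TMM scale and 0 fell (median 0.36). With library totals 0 of them rose and 6 fell (median -0.49). Of 10 listed as specific to mitochondria, 3 rose on the TMM scale and 0 fell (median 0.37), and 0 rose and 4 fell with library totals (median -0.47). Mrps18b is counted among these 10, although it is related to a bacterial protein. Over all tested genes, 22.2% were higher and 21.7% lower on the TMM scale, and 9.2% and 59.5% with library totals. A count near such a share is no trait of its list. Mrps12, a protein of the decoding centre, had 22.4, 24.6 and 22.8 CPM in GZM 1 to 3, against 11.9, 16.1 and 13.6 CPM in GM 1 to 3. It rose on the TMM scale without overlap, with a log2 fold change of 0.75 ± 0.18 (adjusted p = 0.0135, 0.0609 without GZM 2 and 0.0523 without GM 1), and stood at -0.09 with library totals. Mrps16, an early-assembling protein, rose on the TMM scale with a log2 fold change of 0.78 ± 0.16 (adjusted p = 0.00749) and stood at -0.06 with library totals. Mrps18c, the third relative of the bacterial protein shared with Mrps18a and Mrps18b, had 31.1, 30.3 and 26.2 CPM in GZM, against 16.2, 19.6 and 20.2 CPM in GM, a log2 fold change of 0.64 ± 0.17 (adjusted p = 0.017, 0.052 without GZM 1, 0.0721 without GZM 2 and 0.0654 without GM 1). Mrps7, which nucleates the head of the small subunit, had 48.2, 51.9 and 41.4 CPM in GZM, against 33.1, 48.3 and 35.5 CPM in GM. GM 2 lay within the GZM range for Mrps7, whose log2 fold change was 0.28 ± 0.19 (adjusted p = 0.258). Mrps22, specific to mitochondria, had 27.3, 24.6 and 21.3 CPM in GZM, against 26.7, 34.8 and 22.1 CPM in GM, and a log2 fold change of -0.19 ± 0.21 (adjusted p = 0.472). Mrps36, named as a ribosomal protein but known as a part of the 2-oxoglutarate dehydrogenase complex, had 21.4, 25 and 19.1 CPM in GZM, against 14.2, 16.5 and 18.9 CPM in GM, and a log2 fold change of 0.40 ± 0.19 (adjusted p = 0.124). With library totals, Mrpl3, Mrpl12, Mrpl23, Mrps7, Mrps22 and Mrps30 passed as lower in GZM.

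The other end of the range held 7 members with a negative log2 fold change on the TMM scale, none of which passed there: Mrpl49 (-0.46), Mrps6 (-0.43), Mrpl45 (-0.31), Mrps22 (-0.19), Mrpl47 (-0.09), Mrpl38 (-0.09) and Mrpl28 (-0.06). All 7 passed as lower with library totals, with values from -0.91 for Mrpl28 to -1.32 for Mrpl49. Mrps6, a protein of the platform of the small subunit, had 16.6, 14.0 and 12.4 CPM in GZM 1 to 3, against 18.3, 21.4 and 18.1 CPM in GM 1 to 3, so its groups did not overlap (adjusted p = 0.101). Mrpl49, specific to mitochondria, had 6.42, 7.64 and 6.83 CPM in GZM, against 7.96, 13.9 and 6.79 CPM in GM, where GM 2 stood far above the other 5 libraries. Mrpl49 overlaps Syvn1 on the opposite strand, and Syvn1 held 6414 counts against 855 for Mrpl49, with a log2 fold change of 0.68 (adjusted p = 0.011).

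Because the direction of the group rests on the scaling, members were also compared with each other, by setting each library's scale from the summed counts of the members. On this scale, 2 members were higher in GZM relative to the rest and 5 were lower, while 11.5% of all tested genes were called higher and 38.8% lower. Mrps34 was higher by 0.86 (adjusted p = 0.00412) and Mrpl2 by 0.51 (adjusted p = 0.0449). Lower were Mrps6 at -0.86 (adjusted p = 0.00795), Mrpl49 at -0.85 (adjusted p = 0.0368), Mrpl45 at -0.72 (adjusted p = 0.00735), Mrps22 at -0.61 (adjusted p = 0.0265) and Mrpl28 at -0.48 (adjusted p = 0.0391). Mrps34, Mrpl45 and Mrps6 passed without each of the 6 libraries in turn. Mrpl2, Mrpl49, Mrps22 and Mrpl28 passed only in the comparison without GM 3, with adjusted p up to 0.13, 0.106, 0.103 and 0.134 in the others.

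**Figure D3:**
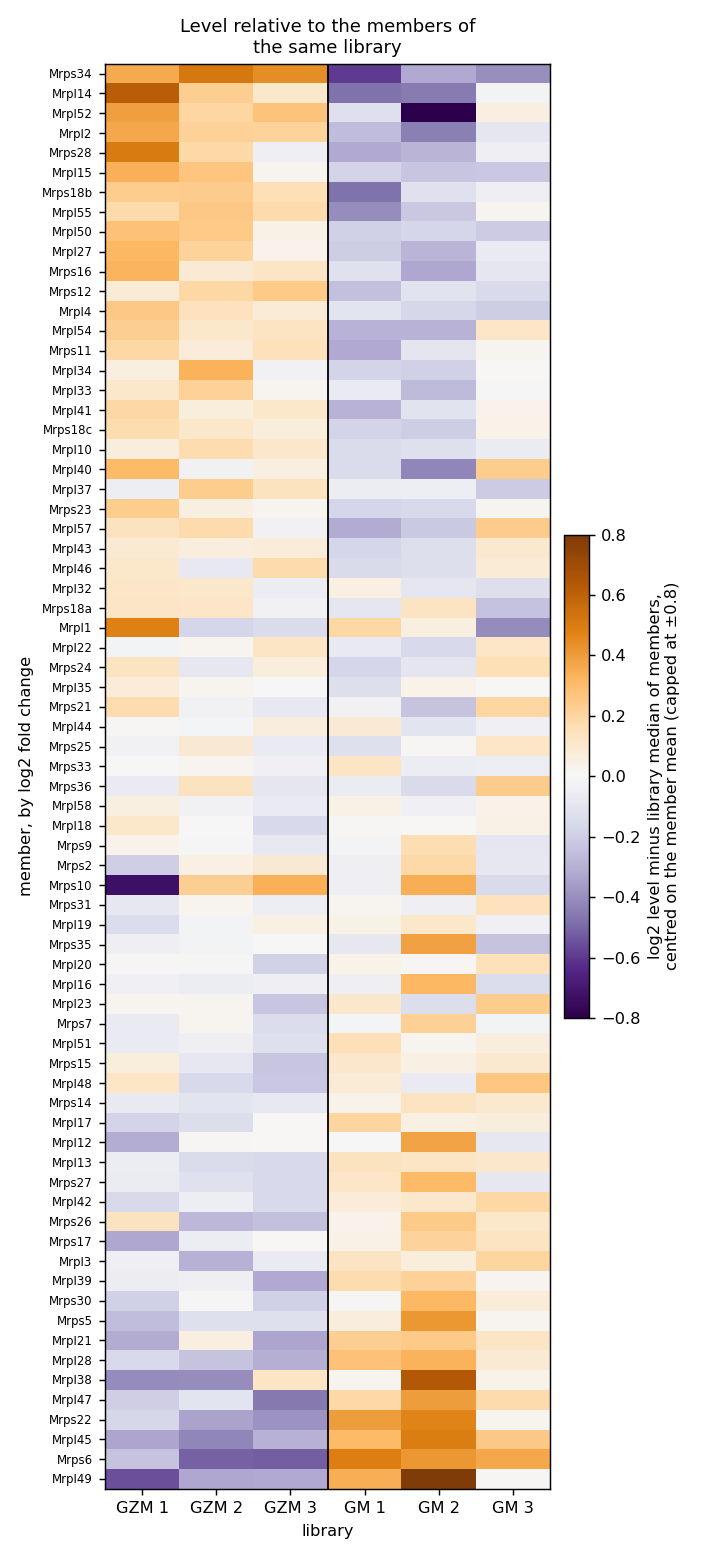
Heat map of the 72 tested members (down the page, by log2 fold change) in each library (across, GZM 1 to 3 then GM 1 to 3). Colour is the log2 level minus the median of the members in the same library, centred on each member's mean and capped at ±0.8. Mrps34 at the top is high in all GZM libraries and Mrps6 near the bottom is high in all GM libraries, and the steps at the group border shrink toward the middle.

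Per length, the members spanned a wide range that the groups shared. Mean FPKM over the 6 libraries ran from 0.903 for Mrpl1 to 160.9 for Mrpl33, with a median of 23.5 and quartiles of 16.7 and 36.6. Mrpl33, a small protein of the large subunit, had a mean of 150 ± 11 FPKM in the GZM libraries and 171 ± 13 FPKM in the GM libraries (SD, n = 3 per group), and Mrpl17, a protein at the tunnel exit, averaged 73.7 ± 3.82 FPKM in GZM and 115 ± 18.2 FPKM in GM. FPKM here follows library totals, so these differences carry the direction of that scale. The order of the 72 members by mean FPKM was largely the same in GZM and GM, with a Spearman rho of 0.89 across genes of the same libraries. Across members, the log2 fold change had a Spearman rho of -0.13 with exon length and of -0.001 with mean CPM, given as descriptions over 72 genes. The coefficient of variation between libraries of a group had a median over members of 10.3% in GZM and 14.6% in GM, against 15.2% in GZM and 22.6% in GM for all tested genes. All tested genes were not matched to the members by level.

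The table holds an entry with a related description beside Mrpl1, a large-subunit protein. Mrpl1 held 92 counts over the 6 libraries, and a gene described as L1-like (LOC100359687) held 533, with 7.72, 7.92 and 6.60 CPM in GZM 1 to 3 and 3.47, 4.94 and 5.14 CPM in GM 1 to 3. The GZM libraries lay above the GM libraries for it, with a log2 fold change of 0.71 ± 0.26 (adjusted p = 0.0584). Whether these genes share reads was not tested, and both values are uncertain. Of the members, 22 have named pseudogenes in RefSeq, 31 in all. The symbols mrpl9 and mrpl24, large-subunit proteins left out only for their lower case, had log2 fold changes of 0.11 ± 0.15 (adjusted p = 0.586) and 0.34 ± 0.18 (adjusted p = 0.158).

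Mitoribosomal proteins that carry other symbols were not uniform. Aurkaip1, a small-subunit protein, had 272, 333 and 254 CPM in GZM 1 to 3, against 181, 164 and 214 CPM in GM 1 to 3, and rose on the TMM scale with a log2 fold change of 0.62 ± 0.20 (adjusted p = 0.0341, and -0.21 with library totals). Ptcd3, a small-subunit protein with RNA-binding repeats, had 82.1, 69.0 and 84.9 CPM in GZM, against 133, 105 and 171 CPM in GM. It fell on both scales, with log2 fold changes of -0.79 ± 0.21 (adjusted p = 0.019) on the TMM scale and -1.60 (adjusted p = 0.000933) with library totals. Gadd45gip1, Chchd1 and Dap3 had log2 fold changes of 0.52, 0.37 and 0.20 and did not pass on the TMM scale, and with library totals they stood at -0.33, -0.47 and -0.64, where Chchd1 and Dap3 passed as lower (adjusted p = 0.0421 and 0.0166).

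Mrpl46 and Mrps11 start from opposite strands of chromosome 1, their ends 72 bases apart in the deposited table, and are the only divergent pair within 1000 bases in which both genes are members. Mrpl46, of the central protuberance, had 30.3, 27.1 and 28.8 CPM in GZM 1 to 3, against 16.8, 21.1 and 21.2 CPM in GM 1 to 3. Mrps11, of the small-subunit platform, had 31.6, 29.6 and 27.8 CPM in GZM, against 14.7, 21.3 and 20.0 CPM in GM. Both rose on the TMM scale and neither overlapped between groups, with log2 fold changes of 0.54 ± 0.16 (adjusted p = 0.0297) and 0.67 ± 0.19 (adjusted p = 0.0222), which were -0.28 and -0.16 with library totals. Each was called without 2 of the 6 libraries in turn. In RefSeq the starts lie farther apart than in the deposited table, with 233 bases between them. This stretch (GRCr8, chr1:142117031-142117263, plus strand) is shown because it lies before both starts. It holds none of the 3 motifs searched below, although the window searched for Mrpl46 holds a YY1 match outside it.
Mrpl46 and Mrps11: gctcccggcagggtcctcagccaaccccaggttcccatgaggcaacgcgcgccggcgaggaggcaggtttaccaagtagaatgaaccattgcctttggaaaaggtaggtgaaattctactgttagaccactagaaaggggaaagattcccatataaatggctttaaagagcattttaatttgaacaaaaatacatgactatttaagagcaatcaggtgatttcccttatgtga

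Of 15 members with a tested gene starting divergently within 1000 bases, others sat beside genes outside the ribosome. Mrps34 starts 71 bases from Eme2, a DNA repair endonuclease subunit, which rose on the TMM scale by 0.72 (adjusted p = 0.0191), and Mrpl2 starts 140 bases from Klc4, a kinesin light chain, which rose by 1.06 (adjusted p = 0.0105). Mrps12 starts 16 bases from Sars2, the mitochondrial seryl-tRNA synthetase, whose value of 0.35 did not pass (adjusted p = 0.287). Mrps18b and Ppp1r10, 584 bases apart, had opposite signs, at 0.81 and -0.32 (adjusted p of the partner 0.154).

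Motifs of 3 factors known from promoters of mitochondrial genes were searched on both strands in RefSeq windows from 250 bases before to 50 bases after each start in GRCr8: GCGCANGCG for NRF1, CCGGAAG for the ETS family to which GABPA belongs, and ATGGCG for YY1. Of the members, 59 had a window, 57 of them tested. The NRF1 motif stood in 17.5% of the 57 and in 6.46% of all 27457 genes with a window, the ETS motif in 31.6% and 9.63%, and the YY1 motif in 31.6% and 11.1%. At least one motif stood in 59.6% of members and 22.6% of all genes. The 57 members all passed the low-count filter, whereas the 27457 genes were not limited to tested ones. Shares over tested genes alone were not computed, so the difference is not shown to be particular to the members. Among members that rose on the TMM scale (23 with a window) the shares were 26.1% for NRF1, 26.1% for ETS and 34.8% for YY1, and among members that did not pass (34 with a window) they were 11.8%, 35.3% and 29.4%. A match is a description of letters and not evidence of binding. To show what such matches look like, the 120 bases before the start are printed for 4 members that rose on the TMM scale, 2 with an ETS match (Mrpl52, Mrpl27) and 2 with an NRF1 match (Mrps18b, Mrpl32), with the matched bases in capitals. They lie on the plus strand at chr15:31852816-31852935, chr10:80092225-80092344, chr20:2842886-2843005 and chr17:55260531-55260650. In Mrps18b and Mrpl32 the capitals join overlapping matches on the 2 strands.
Mrpl52: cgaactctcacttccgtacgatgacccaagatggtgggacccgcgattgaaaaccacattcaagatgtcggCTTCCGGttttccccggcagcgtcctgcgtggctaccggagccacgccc
Mrpl27: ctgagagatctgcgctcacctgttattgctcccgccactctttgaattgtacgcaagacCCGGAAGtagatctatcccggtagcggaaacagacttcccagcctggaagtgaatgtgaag
Mrps18b: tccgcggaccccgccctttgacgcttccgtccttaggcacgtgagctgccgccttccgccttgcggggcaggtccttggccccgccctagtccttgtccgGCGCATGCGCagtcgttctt
Mrpl32: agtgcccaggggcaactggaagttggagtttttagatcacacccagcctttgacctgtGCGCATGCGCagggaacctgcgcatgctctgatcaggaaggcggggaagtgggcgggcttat

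Genes for such factors were measured as well. Among all tested genes, 22.2% were higher and 21.7% lower in GZM on the TMM scale. Of 11 tested regulators of mitochondrial biogenesis, 1 rose and 3 fell on the TMM scale, and their median was -0.50, or -1.32 with library totals. Esrrg, an orphan nuclear receptor, had 11.1, 12.4 and 14.9 CPM in GZM 1 to 3, against 1.74, 0.851 and 1.75 CPM in GM 1 to 3, and rose on both scales (3.15 ± 0.34, adjusted p = 0.002, and 2.34 with library totals). Pprc1, a coactivator related to PGC-1, had 28.8, 22.4 and 24.7 CPM in GZM, against 54.5, 82.4 and 42.3 CPM in GM, and fell on both scales (-1.24 ± 0.25, adjusted p = 0.00709, and -2.10 with library totals). Gabpb2, a partner of GABPA, fell to 2.01, 2.17 and 2.98 CPM in GZM, against 8.87, 6.72 and 3.80 CPM in GM (-1.43 ± 0.38, adjusted p = 0.019). Gabpa itself fell on both scales, at -0.58 ± 0.19 (adjusted p = 0.0395) and -1.43 with library totals.

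Genes that build and serve the mitoribosome were mixed. Over all tested genes, 22.2% were higher and 21.7% lower on the TMM scale, and 9.2% and 59.5% with library totals. A count near such a share, here or in the next lists, is no trait of its list. Of 27 tested assembly factors, 6 rose and 1 fell on the TMM scale (median 0.16, and -0.67 with library totals, where 0 rose and 15 fell). Mterf4, which targets an RNA methyltransferase to the large subunit, had 27.4, 29.6 and 24.4 CPM in GZM 1 to 3, against 10.3, 11.1 and 12.9 CPM in GM 1 to 3 (log2 fold change 1.25 ± 0.18, adjusted p = 0.00262). Malsu1, which binds Mrpl14 during assembly, had 18.3, 22.2 and 17.6 CPM in GZM, against 6.27, 8.98 and 9.10 CPM in GM (1.25 ± 0.23, adjusted p = 0.00473). Rbfa, a small-subunit assembly factor, rose by 1.04 ± 0.15 on the TMM scale (adjusted p = 0.00265). With library totals these 3 values were 0.42, 0.42 and 0.21 and did not pass. The GTPase Gtpbp10 fell on both scales, to 19.1, 23.7 and 16.1 CPM in GZM, against 46.4, 93.4 and 32.5 CPM in GM (-1.55 ± 0.38, adjusted p = 0.0133).

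Of 18 tested translation factors, 6 rose and 0 fell on the TMM scale (median 0.31, and -0.53 with library totals, where 0 rose and 10 fell). Pdf, the deformylase that trims new mitochondrial proteins, rose by 1.30 ± 0.29 (adjusted p = 0.0103), the GTPase Guf1 by 0.85 ± 0.24 (adjusted p = 0.0231) and Taco1, the activator of cytochrome oxidase translation, by 0.82 ± 0.26 (adjusted p = 0.0341), with values of 0.49, 0.03 and -0.02 with library totals. Of 19 tested aminoacyl-tRNA synthetase and amidotransferase genes, 2 rose and 0 fell on the TMM scale (median 0.15), whereas 0 rose and 11 fell with library totals (median -0.69). Those that rose on the TMM scale were Gatb (0.88 ± 0.20, adjusted p = 0.0106) and Ears2 (0.73 ± 0.25, adjusted p = 0.0473). Of 19 tested genes of mitochondrial DNA and RNA upkeep, 5 rose and 1 fell on the TMM scale (median 0.28), whereas 1 rose and 11 fell with library totals (median -0.55). Hsd17b10, a dehydrogenase that is also a subunit of mitochondrial RNase P, rose on both scales (1.64 ± 0.24, adjusted p = 0.0027, and 0.83 with library totals), and Tfb2m, a mitochondrial transcription factor, and Top1mt, the mitochondrial topoisomerase, rose on the TMM scale by 0.92 ± 0.16 (adjusted p = 0.00384) and 0.82 ± 0.17 (adjusted p = 0.00702). Of 20 tested import and chaperone genes, 5 rose and 0 fell on the TMM scale (median 0.19), whereas 1 rose and 12 fell with library totals (median -0.66). Clpx, the unfoldase of the matrix protease, rose on both scales (1.84 ± 0.29, adjusted p = 0.00318), and the import cochaperone Grpel1 (1.28 ± 0.19, adjusted p = 0.0028) and the processing peptidase Pmpcb (0.64 ± 0.13, adjusted p = 0.00767) rose on the TMM scale.

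**Figure D4:**
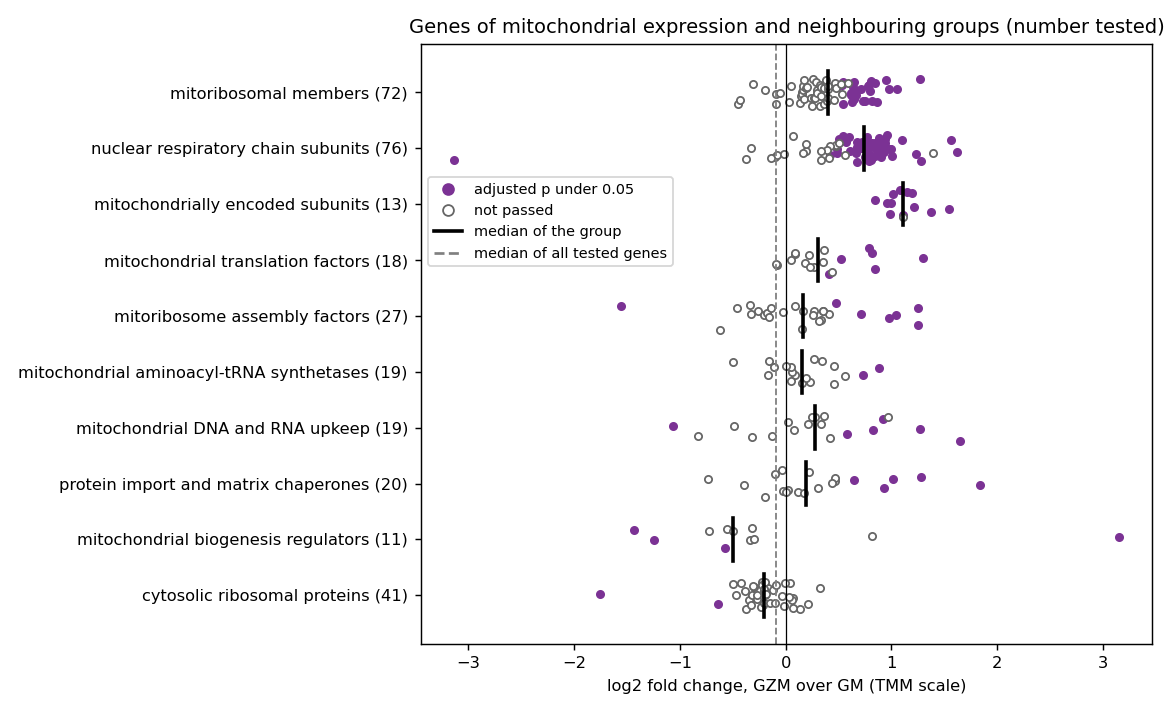
Log2 fold changes (GZM over GM, TMM scale) of single genes in 10 groups, with the number tested in brackets. Filled points passed at an adjusted p of 0.05, thick bars are group medians, and the dashed line is the median of all tested genes. The median of the members (0.40) lies between those of the nuclear respiratory chain subunits (0.74) and the cytosolic ribosomal proteins (-0.20), and with library totals these medians are -0.44, -0.09 and -1.04.

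Transcripts of the mitochondrially encoded subunits and of their nuclear partners had larger median log2 fold changes than those of the members. Of the 13 mitochondrially encoded subunits, 12 rose and 0 fell on the TMM scale (median 1.11), and 2 rose and 0 fell with library totals (median 0.27). Of 76 tested nuclear-encoded respiratory chain and ATP synthase subunits, 55 rose and 1 fell on the TMM scale (median 0.74), and 2 rose and 13 fell with library totals (median -0.09). The one that fell on the TMM scale, Ndufa4l2, is a hypoxia-induced relative of a cytochrome oxidase subunit and fell to 1.91, 2.36 and 3.85 CPM in GZM 1 to 3, against 20.1, 41.2 and 11 CPM in GM 1 to 3 (-3.14 ± 0.53, adjusted p = 0.00384). Of 41 tested cytosolic ribosomal proteins, 0 rose and 2 fell on the TMM scale (median -0.20), and 0 rose and 37 fell with library totals (median -1.04).

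Ratios of summed FPKM within a library do not depend on the scaling between libraries. The Mrpl genes summed to 1.78, 1.81 and 1.79 times the Mrps genes in GZM 1 to 3 and to 1.85, 1.71 and 1.84 times in GM 1 to 3, with means of 1.79 ± 0.0144 over the GZM libraries and 1.80 ± 0.0774 over the GM libraries (SD, n = 3 per group). This ratio overlapped between the groups. It compares RNA by symbol and is not a balance of the subunits. Mrps30, Mrps18a and Mrps36 count with the Mrps genes, and the lower-case symbols are left out. Members relative to nuclear respiratory chain subunits stood at 0.207, 0.214 and 0.223 in GZM and 0.251, 0.267 and 0.230 in GM, without overlap. Members relative to mitochondrially encoded subunits stood at 0.0253, 0.0226 and 0.0217 in GZM and 0.0338, 0.0412 and 0.0329 in GM, a ratio of group means of 0.644. Against cytosolic ribosomal proteins the order turned round, at 0.145, 0.169 and 0.155 in GZM and 0.0935, 0.0999 and 0.0987 in GM, a ratio of group means of 1.60. These groups did not overlap either.

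**Figure D5:**
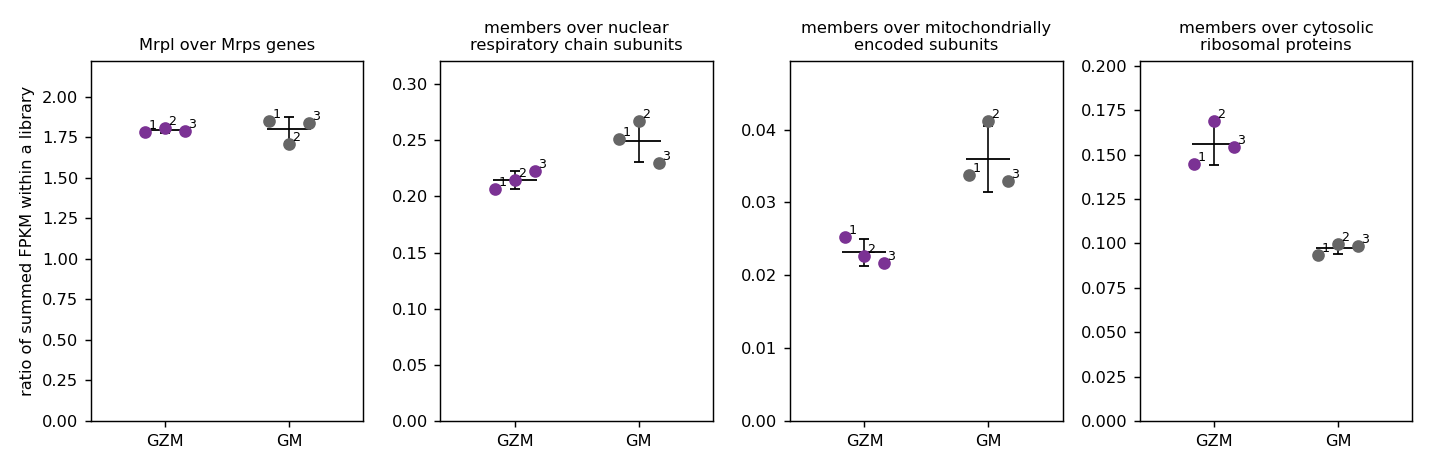
Ratio of summed FPKM within each library, with replicate numbers beside the points and a bar for the mean ± SD (n = 3 per group). The ratio of Mrpl to Mrps genes overlaps between GZM and GM, the ratios to nuclear and mitochondrially encoded respiratory subunits are lower in all GZM libraries, and the ratio to cytosolic ribosomal proteins is higher in all GZM libraries.

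The libraries also differed in cell type markers. The counts below stand beside 22.2% of all tested genes higher and 21.7% lower on the TMM scale. With library totals these shares were 9.2% and 59.5%. Of 14 tested hepatocyte markers, 13 rose and 0 fell on the TMM scale, with summed CPM of 138905 to 164642 in GZM and 16248 to 58324 in GM, and 11 of them also rose with library totals. All 16 cell division markers fell on both scales, with summed CPM of 299.9 to 327.9 in GZM and 713.8 to 1804 in GM. Of 10 macrophage markers, 2 rose and 6 fell on the TMM scale, and 1 rose and 7 fell with library totals (summed CPM 1656 to 2262 in GZM and 3283 to 5418 in GM). Of 11 T and NK cell markers, 0 rose and 1 fell on the TMM scale, and 0 rose and 8 fell with library totals (summed CPM 102 to 317 in GZM and 322 to 652 in GM). Of 8 endothelial markers, 5 rose and 2 fell on the TMM scale, and 0 rose and 2 fell with library totals. Of 8 stellate and fibroblast markers, 1 rose and 1 fell on the TMM scale, and 0 rose and 7 fell with library totals. On the TMM scale 1 of 6 bile duct markers and 3 of 5 erythroid markers rose and 0 fell, and 0 of 5 B cell markers passed, whereas with library totals 1 bile duct marker fell, 1 erythroid marker rose and 1 B cell marker fell. No marker in these lists was at 0 counts in total. The part of these differences in the values of the mitoribosomal genes was not tested. GM 3 had the highest hepatocyte sum of the GM libraries, and GZM 1 had the highest T and NK cell sum of the GZM libraries. Without GM 3 and GZM 1 together, the count of members higher on the TMM scale was 28, a setting chosen after the data were seen.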

How the data were processed

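RNA of 6 liver samples was poly(A)-selected and made into strand-specific libraries, per the labels' protocols. The deposited count of each gene is a whole number, not normalized, per the file headers. The deposited FPKM values are, per the file headers, expression per gene: all 195738 lay within 0.01 of the count divided by exon length and summed counts. The deposited exon length, per the file headers, is in bases. The build is mRatBN 7.2 per the submitters' processing notes, but deposited positions reach 282724300 on chromosome 1, beyond it, so only chromosomes are printed from them. No aligner or counter, and no use of strand in counting, is named (not given in the sources used here): 11 members overlap a gene on the opposite strand and are uncertain. Columns lettered ZGM were matched to the GZM samples by letters and number.

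Counts were tested with edgeR 4.0.16 (R 4.3.3; TMM, filterByExpr, quasi-likelihood test, Benjamini-Hochberg adjustment over 14298 genes, threshold 0.05), GZM against GM, without covariates, after a check on simulated data. Alternatives were library totals, median-of-ratios factors, DESeq2 1.42.0, limma 3.58.1 (voom, and log2 of FPKM plus 0.5), no filter, a replicate block and leaving out each library. Genes of related lists were recomputed with library totals and the summed-member scale only. Members and lists were chosen with earlier results of these data known. Members named are the 8 largest rises and 8 largest falls (0 passed) without overlap and 16 chosen for their role, and from lists up to 3 genes of smallest p. Other named members and genes were named after their values were seen. Cytosolic ribosomal proteins exclude RNase P symbols. Nothing says how the biosamples relate to animals, so p-values measure the spread between these samples. Depth was 13443115 to 16604067 counts a library. Sequences are from RefSeq (GRCr8), where 73 members matched by symbol.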

Additional observations from a re-analysis of the deposited data

How the results depend on the processing

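The direction of the group rested on the scaling. With library totals, 9828 genes changed, 0 members were higher and 27 lower, and the member median was -0.44. With limma on log2 of FPKM plus 0.5, which follows library totals, these were 9900, 0, 29 and -0.42. Scaled to the summed member counts, 2 members were higher, 5 lower and the median was -0.029. That scale sets the members' sum level between libraries, so a median near 0 is built in. It cannot show the direction of the group. Of the 72 tested members, 65 had a positive log2 fold change on the TMM scale and 5 with library totals. The lists that follow hold only genes named by rule, that is the 8 largest rises and those chosen for their role. Those that turned negative with library totals were Mrps30 (-0.71), Mrpl3 (-0.68), Mrpl12 (-0.66), Mrps7 (-0.57), Mrpl23 (-0.55), Mrps36 (-0.43), Mrpl44 (-0.39), mrpl11 (-0.36), Mrps18a (-0.32), Mrpl10 (-0.21), Mrps18c (-0.19), Mrps12 (-0.093), Mrpl55 (-0.025), Mrps18b (-0.019) and Mrpl15 (-0.0042). With limma on FPKM they were Mrpl3 (-0.67), Mrps30 (-0.66), Mrpl12 (-0.60), Mrpl23 (-0.54), Mrps7 (-0.53), Mrps36 (-0.40), Mrpl44 (-0.37), mrpl11 (-0.34), Mrps18a (-0.27), Mrpl10 (-0.19), Mrps18c (-0.18), Mrps12 (-0.073) and Mrpl55 (-0.010). The summed-member scale was chosen after the data were seen, and a negative value on it is only relative to the other members. On that scale they were Mrps30 (-0.28), Mrpl3 (-0.27), Mrpl12 (-0.21), Mrpl23 (-0.15), Mrps7 (-0.14) and Mrps36 (-0.031).

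Leaving out one library moved the genes changed between 3777 and 7024, beside 6285 with all 6, the members higher between 9 and 33, and the member median between 0.32 and 0.52, with 0 members lower each time; such fits have fewer samples. Median-of-ratios factors, DESeq2 and limma-voom gave 30, 31 and 28 members higher. No gene named by rule lost its call under them. Without the low-count filter 21 members were higher. The replicate numbers did not pair the libraries: same-numbered deviations correlated at -0.15, 0.16 and -0.31. A replicate block gave 21 members higher, 0 lower and a median of 0.40, with 5166 genes changed. Mrpl44 and mrpl11 lost their calls under the replicate block (adjusted p = 0.110 and 0.0662) and without the low-count filter (0.104 and 0.0682), and Mrpl44 also without GM 3 and GZM 1 (0.0720). The other genes named by rule kept their side of the threshold in these 3 settings. Members named otherwise were not followed one by one in them, and some of those may have lost their calls. At 3 libraries per group, a member change of the size of the group median often does not pass, and a member that did not pass is not shown to be level.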

Other observations

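Beyond the comparisons above, single members varied within a group in ways the labels do not give. Mrps10, a small-subunit protein, had 8.02, 15.8 and 15.2 CPM in GZM 1 to 3 and 8.58, 13.8 and 8.53 CPM in GM 1 to 3, so that GZM 1 matched GM 1 and GM 3 and GM 2 stood nearer to the other GZM libraries. Mrps35, also of the small subunit, had 43.0, 44.3 and 40.0 CPM in GZM and 27.7, 47.4 and 26.8 CPM in GM, where GM 2 lay above all GZM libraries. Mrpl38, of the central protuberance, had 23.2, 23.7 and 30.3 CPM in GZM and 20.6, 39.1 and 22.5 CPM in GM. Mrpl57 is uncertain in a different way: its groups did not overlap (18.3, 19.1 and 14.8 CPM in GZM, against 8.87, 11.7 and 14.0 CPM in GM; adjusted p = 0.0704), and it overlaps the cell division gene Ska3 on the opposite strand, which fell by 1.99 on the log2 scale (adjusted p = 0.00506). Mrpl13 likewise overlaps Mtbp, which fell by 2.20 (adjusted p = 0.00376), and Mrps7 overlaps Gga3, which fell by 0.85 (adjusted p = 0.00624). These members were named after their values were seen.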
